A study of Homo sapiens with 8 samples.

Results

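Caco-2 cells given exosomes of M2 macrophages were compared, gene by gene, with untreated Caco-2 cells. The comparison used 6 of the 8 samples of the series, 3 untreated and 3 treated. Its members were every gene whose counts passed an expression filter set by group, which kept 15084 of the 58735 genes in the deposited table. A further 29321 genes had no count in any of the 6 libraries. Caco-2 is an established human colorectal carcinoma line. It was grown in DMEM, a standard culture medium, with 18% fetal bovine serum, and both groups carried a wild type genotype label. The treated group received M2-exo, exosomes prepared from macrophages derived from the human monocytic line THP-1. The samples titled untreated are described elsewhere in the labels as given PBS, a buffered saline. Dose, exposure time and the origin of the replicates (separate cultures or repeat libraries) were not stated in the labels. Every p-value here therefore reflects variation among these particular samples, some or all of which may be technical.

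Exosomes are small membrane vesicles that cells release from multivesicular endosomes, and they carry proteins, lipids and RNA, microRNAs among them. Recipient cells take them up largely by endocytosis, and their content can reach the cytoplasm. In the intestine, macrophages of the M2 type are known for tissue repair and for signals to the epithelium. A transcriptome comparison with few replicates yields, for every gene, both a difference and the range of differences that the replicates still allow, and that range depends on the gene's level, its length and how the libraries vary.

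The 6 libraries held between 15608937 and 18324599 counts assigned to genes, and between 21688 and 23085 genes had at least 1 count. The labels give the cell type as stem cells. Of 12 markers of the Caco-2 intestinal epithelium, 9 reached a mean of 1 CPM (counts per 1000000 counts of the scaled library), among them the cadherin CDH1 at 1099, 1112 and 1087 CPM in untreated and 1099, 1057 and 1165 CPM in treated cells, whereas KRT20, LGALS4 and GPA33 stayed near 0. Of 5 pluripotent stem cell markers only SOX2 reached that level, and NANOG and DPPA4 had no count, while 5 of 6 intestinal stem cell markers were present. Of 14 macrophage markers, 4 reached 1 CPM, CD68 and TYROBP had no count in any library, and the summed level of the list was 17.1 to 21.5 CPM in untreated and 13.4 to 20.6 CPM in treated cells. In bulk RNA, fewer cells of a type and less RNA per cell cannot be told apart.

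No gene passed the test of a difference between treated and untreated cells. In edgeR's quasi-likelihood test with Benjamini-Hochberg adjustment, 0 of 15084 genes (0%) had an adjusted p under 0.05, and the smallest adjusted p was 0.9999. At an unadjusted p under 0.05 there were 53 genes higher (0.351%) and 58 lower (0.385%) in treated cells, where evenly spread p-values would give 754. DESeq2 gave 0 calls and 124 genes at that unadjusted threshold, and limma-voom gave 0 and 104. The estimated differences were small. Their median on the log2 scale was -0.01, the middle 50% of genes lay between -0.11 and 0.09, and the middle 90% between -0.40 and 0.37. Of all genes, 7098 (47.1%) had an estimate above 0. All 3 treated values exceeded all 3 untreated values in 249 genes (1.65%), the reverse held in 347 (2.3%), and the groups did not overlap in 596 (3.95%) in all. Exchangeable libraries would give such separation, in either direction, in a share of 0.1 of genes, more than was seen.

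A missed threshold does not show that a gene stayed the same, so each gene was also tested against a stated size of change. A gene was counted as bounded within a fold when one-sided tests against that fold in both directions passed an adjusted p of 0.05 over all genes. Changes beyond 4-fold were bounded for 14906 genes (98.8%), beyond 2-fold for 12125 (80.4%) and beyond 1.5-fold for 6325 (41.9%). The unadjusted 95% interval of the log2 difference lay wholly within 2-fold for 75.6% of genes, fewer than the adjusted rule passed. A gene counted as bounded can therefore have an interval that reaches past 2-fold. The half-width of the interval had a median of 0.51 and ranged from 0.29 at the first percentile to 1.66 at the 99th. The 1.5-fold bound depended on which libraries were in: no gene was bounded within 1.5-fold once untreated 2, treated 1, treated 2 or treated 3 was left out, 6247 were without untreated 1 and 4696 without untreated 3. The 2-fold bound held for 10606 to 11784 genes when any of the 6 libraries was left out.

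What could be bounded varied with expression level. Of 1394 genes under 1 CPM, 81 (5.81%) were bounded within 2-fold, against 1503 of 2800 (53.7%) at 1 to 5 CPM, 2839 of 3070 (92.5%) at 5 to 20 CPM, 5403 of 5497 (98.3%) at 20 to 100 CPM and 2299 of 2323 (98.97%) at 100 CPM and over. The median half-width of the 95% interval fell with level from 1.19 to 0.36 on the log2 scale. Within 1.5-fold, 0 genes under 1 CPM could be bounded, compared with 66.7% at 20 to 100 CPM and 84.5% at 100 CPM and over. Groups without overlap were most common among the lowest genes, at 8.82% under 1 CPM and 2.02% at 100 CPM and over.

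The genes with the narrowest intervals show the limit at each level. APLP2, an amyloid precursor-like membrane protein, had 4021, 3740 and 3708 CPM in untreated and 3473, 3786 and 3719 CPM in treated cells. The groups overlapped, and its log2 difference was -0.06 with a standard error of 0.118 and a 95% interval of -0.33 to 0.20. SNRNP200, the helicase of the U5 spliceosomal particle, had 619, 607 and 595 CPM in untreated against 623, 619 and 592 CPM in treated cells, a log2 difference of 0.01 (interval -0.26 to 0.27). MYO10, an unconventional myosin of filopodia, had 271, 280 and 273 CPM untreated and 242, 246 and 251 CPM treated. Its groups did not overlap, yet its interval of -0.42 to 0.11 kept 0.

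KIF2C, a mitotic kinesin, represents the range from 20 to 100 CPM, with 87.3, 88.3 and 88.7 CPM untreated, 87.2, 92.6 and 94.2 CPM treated and an interval of -0.24 to 0.34. TNFRSF10B, a death receptor for TRAIL, had a log2 difference of 0.07 (-0.22 to 0.35) and the lipid-binding gene OSBPL2 one of -0.17 (-0.45 to 0.12). MTERF4, a mitochondrial ribosome assembly factor, gave 20.01, 19.4 and 19.3 CPM untreated and 19.8, 19.5 and 19.8 CPM treated. Its 6 values lay closer together than those of any gene above, while its interval of -0.36 to 0.37 was wider: the model shares part of the spread among genes of like level. At 1 to 5 CPM, the calpain CAPN13 had 4.57, 4.36 and 5.01 CPM against 4.39, 4.71 and 4.51 CPM, with an interval of -0.54 to 0.47. Under 1 CPM the 95% interval lay wholly within 2-fold for 1.29% of genes. Narrow intervals there could still reach past 2-fold: ALDH1A3, a retinaldehyde dehydrogenase, spanned -0.54 to 1.13 and the transcription factor gene DMRT2 -1.30 to 0.36.

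**Figure D1:**
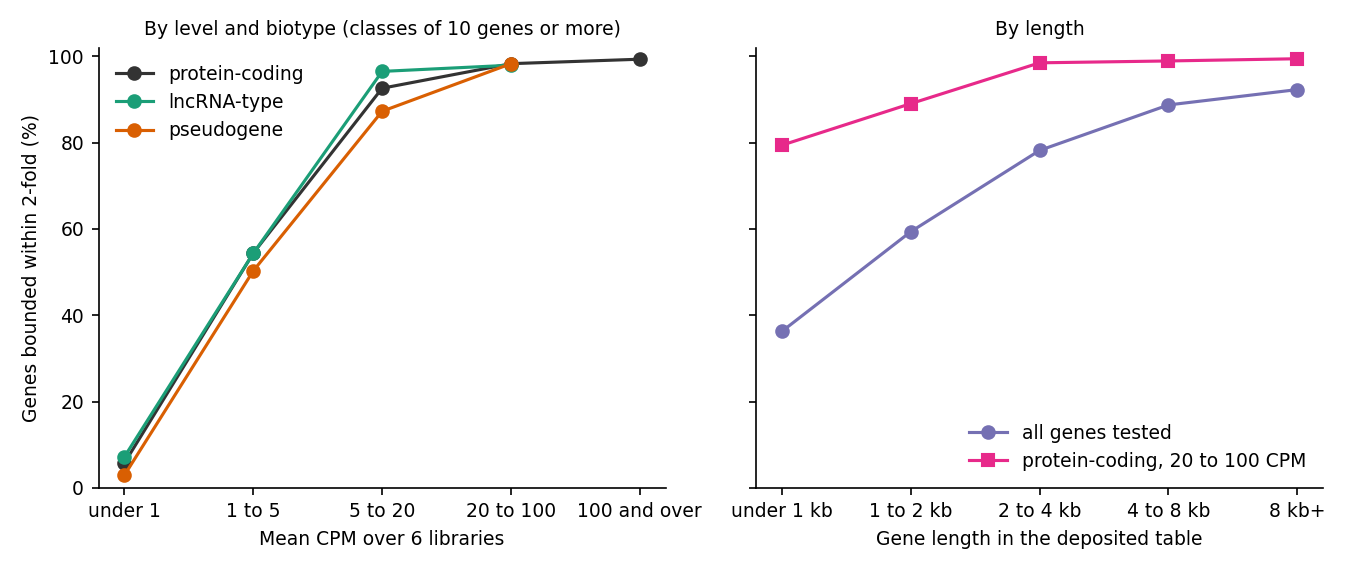
Share of genes whose change was bounded within 2-fold (y axis, percent), by mean CPM over the 6 libraries for 3 biotypes (left) and by gene length in the deposited table for all genes tested and for protein-coding genes of 20 to 100 CPM (right). Biotypes of like level lie close together on the left, from under 10% to over 98%, and short genes are bounded less often at a matched level on the right.

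Biotypes differed as a whole and much less at matched level. Of 12520 protein-coding genes, 10960 (87.5%) were bounded within 2-fold, against 711 of 1565 lncRNA-type genes (45.4%), 396 of 823 pseudogenes (48.1%), 37 of 110 genes annotated as still to be experimentally checked (33.6%) and 9 of 40 small RNA and other genes (22.5%). At 5 to 20 CPM the shares were 92.6% of protein-coding genes, 96.5% of lncRNA-type genes and 87.3% of pseudogenes, and at 20 to 100 CPM they were 98.3%, 98.0% and 98.3%. Long noncoding RNAs held 0.799% ± 0.0168 of counts without and 0.790% ± 0.0466 with exosomes (mean ± SD, n = 3), a difference within the spread (exact permutation test, two-sided, p = 0.9, the smallest possible being 0.1; Benjamini-Hochberg adjusted over 18 such shares, 0.953). Groups did not overlap in 59 lncRNA-type genes with higher and 51 with lower values in treated cells, 7.03% of that class against 3.95% of all genes. In each level class from 1 to 100 CPM the share was also above that of protein-coding genes, with 7.05% against 5.42% at 1 to 5 CPM, 5.97% against 3.50% at 5 to 20 CPM and 6.12% of 49 genes against 2.56% at 20 to 100 CPM. Under 1 CPM the order was the other way, 7.58% against 10.4%. Exchangeable libraries would separate in a share of 0.1 of genes, and of these shares only the 10.4% was above it.

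Some lncRNA-type genes had closely spaced replicates, although none passed the edgeR test after adjustment. AP000873.2 had 2.79, 2.57 and 2.59 CPM in untreated and 4.11, 4.13 and 4.12 CPM in treated cells, a log2 difference of 0.64 with a 95% interval of 0.10 to 1.18. The groups stood apart with little spread in either. AC004982.2 (0.61, 0.08 to 1.14), AC015712.2 (0.97, 0.13 to 1.82) and LINC01186 (1.08, 0.17 to 1.99) were the other higher genes that the naming rule took. On the lower side were the antisense transcript RAB30-AS1, with 9.97, 10.97 and 15.02 CPM against 8.61, 6.60 and 9.53 CPM (log2 -0.54, -1.08 to 0.00), the divergent transcript LY6E-DT (-0.78) and HAGLR from the HOXD cluster (-0.99). The counting is not stated to use strand, so antisense and divergent genes may hold reads of their partners. Abundant nuclear and cytoplasmic lncRNAs were well bounded: 13 of the 14 in the list were within 2-fold (80.4% of all genes), among them NORAD, a sink for PUMILIO proteins (log2 0.07), the nuclear speckle RNA MALAT1 (0.03), the paraspeckle scaffold NEAT1 (-0.11) and the snoRNA host GAS5 (-0.14). The median level of the list was 52.1 CPM, and of all genes at 20 to 100 CPM 98.3% were bounded within 2-fold.

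Short genes were bounded less often than long ones, also at matched level. The share bounded within 2-fold was 36.3% under 1 kb, 59.4% at 1 to 2 kb, 78.2% at 2 to 4 kb, 88.7% at 4 to 8 kb and 92.3% at 8 kb and over. Among protein-coding genes of 20 to 100 CPM it still climbed from 79.4% of 34 genes under 1 kb to 99.5% of 1277 genes of 8 kb and over, and the share bounded within 1.5-fold went from 17.6% to 77.5%. Lengths are those of the deposited table.

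The spread between libraries was wider in untreated than in treated cells. The SD of log2 CPM had a median of 0.30 in untreated and 0.19 in treated cells, and 10853 genes (72%) were more variable among the untreated libraries. At 100 CPM and over, the medians were 0.23 and 0.12, and the spread of a gene around its group mean was 7.60 times what counting alone would give (median). Under 1 CPM the medians were 0.54 and 0.49 and that ratio was 1.39. The share more variable in untreated cells was 50.2% without untreated 1, 57.1% without untreated 3 and 69.35% without untreated 2. Each of these sets an SD from fewer libraries against an SD from more. Equal spread would then not give an even split, so 50.2% does not show that the difference was gone.

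Genes on which untreated 1 and untreated 3 stood far apart can be compared at their promoters. From toward the ends of that range 6 are shown, 3 much higher in untreated 3 than in untreated 1 and 3 much lower. They are not the 6 farthest apart: PABPN1 and ASCL2, given below, stood farther apart on the log2 scale than CTSD and AURKAIP1. Each line gives the 150 bases before the annotated start in RefSeq (GRCh38.p14), on the gene's strand, with runs of at least 6 G or C bases in capitals. The high genes are TMEM141, a small membrane protein (chr9:136791194-136791343, plus strand), CTSD, the lysosomal protease cathepsin D (chr11:1763928-1764077, minus strand), and AURKAIP1, a mitochondrial ribosome protein that binds Aurora A kinase (chr1:1375208-1375357, minus strand). The low genes are GCSH, a carrier of the mitochondrial glycine cleavage system (chr16:81096396-81096545, minus strand), LDHB, a subunit of lactate dehydrogenase (chr12:21657843-21657992, minus strand), and ATP5PO, a stalk subunit of ATP synthase (chr21:33915805-33915954, minus strand).
TMEM141: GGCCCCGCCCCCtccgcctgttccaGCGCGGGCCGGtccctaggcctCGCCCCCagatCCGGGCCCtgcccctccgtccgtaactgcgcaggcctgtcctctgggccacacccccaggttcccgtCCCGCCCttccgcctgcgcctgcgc
CTSD: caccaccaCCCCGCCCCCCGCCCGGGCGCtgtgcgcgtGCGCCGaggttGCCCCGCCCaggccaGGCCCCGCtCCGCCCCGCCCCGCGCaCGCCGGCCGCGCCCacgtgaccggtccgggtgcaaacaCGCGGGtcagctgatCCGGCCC
AURKAIP1: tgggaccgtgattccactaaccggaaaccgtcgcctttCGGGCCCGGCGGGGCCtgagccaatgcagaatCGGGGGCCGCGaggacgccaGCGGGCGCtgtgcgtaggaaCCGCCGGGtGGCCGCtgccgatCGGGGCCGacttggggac
GCSH: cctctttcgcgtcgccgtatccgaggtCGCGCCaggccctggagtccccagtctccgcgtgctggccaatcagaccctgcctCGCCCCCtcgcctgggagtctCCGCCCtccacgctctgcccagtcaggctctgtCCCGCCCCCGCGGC
LDHB: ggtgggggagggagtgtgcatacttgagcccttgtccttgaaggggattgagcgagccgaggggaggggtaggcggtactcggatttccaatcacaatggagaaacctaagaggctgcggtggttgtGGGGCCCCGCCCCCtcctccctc
ATP5PO: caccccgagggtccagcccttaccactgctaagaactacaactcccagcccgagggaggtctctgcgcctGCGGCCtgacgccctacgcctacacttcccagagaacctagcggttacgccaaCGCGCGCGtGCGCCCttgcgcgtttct
The G and C content of the shown bases is 77.3% for TMEM141, 82% for CTSD and 71.3% for AURKAIP1, with 45, 87 and 57 bases in capital runs. It is 72.7% for GCSH, 62% for LDHB and 64.7% for ATP5PO, with 33, 14 and 20 bases in runs. GCSH overlaps AURKAIP1 in G and C content, so the ends are not separated by it. Over the 50 protein-coding genes at the high end the median G and C content of the 300-base window around the start was 71%, over the 50 at the low end 64.7%, and over all 6390 genes considered 65.3%. The high end also had more gene neighbours (median 56 genes starting within 500 kb, against 20.5 at the low end and 30 over all) and shorter genes (median 2967, 4938 and 5559 bases). These are descriptions of annotated sequence, and promoter sequence was matched by symbol for 10195 of the 12520 protein-coding genes tested (81.4%).

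TMEM141 had 3.56, 10.0 and 53.9 CPM in untreated and 13.2, 11.4 and 32.1 CPM in treated cells. Untreated 1 was the lowest and untreated 3 the highest of the 6, and all treated values lay between them, so the log2 difference of -0.25 had a standard error of 0.802 and an interval of -2.06 to 1.55. CTSD had 25.2, 72.2 and 198 CPM against 57.9, 76.0 and 152 CPM, a log2 difference of -0.04 (-1.45 to 1.36). AURKAIP1 gave 23.4, 56.1 and 146 CPM against 44.4, 82.1 and 103 CPM, with 0.03 (-1.23 to 1.29). In these 3 genes the means of the groups were close and the interval nonetheless allowed changes of more than 2-fold in both directions. The low genes showed the opposite placement of the same untreated libraries. GCSH had 68.5, 31.9 and 17.8 CPM untreated and 44.97, 38.0 and 24.2 CPM treated (log2 -0.14, -1.11 to 0.83). LDHB had 219, 87.4 and 79.0 CPM untreated and 106, 80.8 and 84.2 CPM treated (log2 -0.51, -1.30 to 0.28), where 1 untreated library carries most of the difference. ATP5PO had 62.1, 30.04 and 24.9 CPM against 34.0, 37.4 and 29.5 CPM (log2 -0.21, -0.92 to 0.49).

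Among the 10890 genes of at least 5 CPM, 191 (1.75%) had their highest and lowest library at least 4-fold apart, where 790 of all genes tested (5.24%) did. Untreated 1 was the lowest of the 6 libraries in 172 of the 191, untreated 3 the highest in 146, and both held in 139. Choosing genes by range favours the libraries that stand apart, so these counts follow in part from the choice. Over all 10890 genes, untreated 1 lay farthest from the mean of the other 5 libraries in 44.0% and untreated 3 in 27.0%, in either direction. The 191 genes lay in gene-dense regions (median 54 neighbours within 500 kb, against 31 for all genes of that level), were short (median 2903 against 5192 bases) and had promoter windows with a median G and C content of 70.7% against 65.2%. Of them, 39 were on chromosome 19, which held 678 of the 10890 genes. Their median absolute log2 difference between groups was 0.18, and 37 of the 191 were bounded within 2-fold. They include FTH1, the ferritin heavy chain that stores iron, with 68.1, 173 and 462 CPM untreated and 138, 183 and 493 CPM treated (log2 0.21, -1.24 to 1.66). They also include PABPN1, the nuclear poly(A)-binding protein, with 6.73, 19.6 and 95.1 CPM against 18.6, 21.9 and 44.8 CPM (-0.51, -2.23 to 1.21). IGF2, the imprinted fetal growth factor, had 19.4, 66.1 and 126 CPM against 59.4, 44.9 and 166 CPM (0.35, -1.07 to 1.77), and ASCL2, a transcription factor of intestinal stem cells, 6.80, 18.2 and 75.3 CPM against 16.8, 23.4 and 73.1 CPM (0.18, -1.59 to 1.94). In each of these 4 genes untreated 1 was the lowest library.

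**Figure D2:**
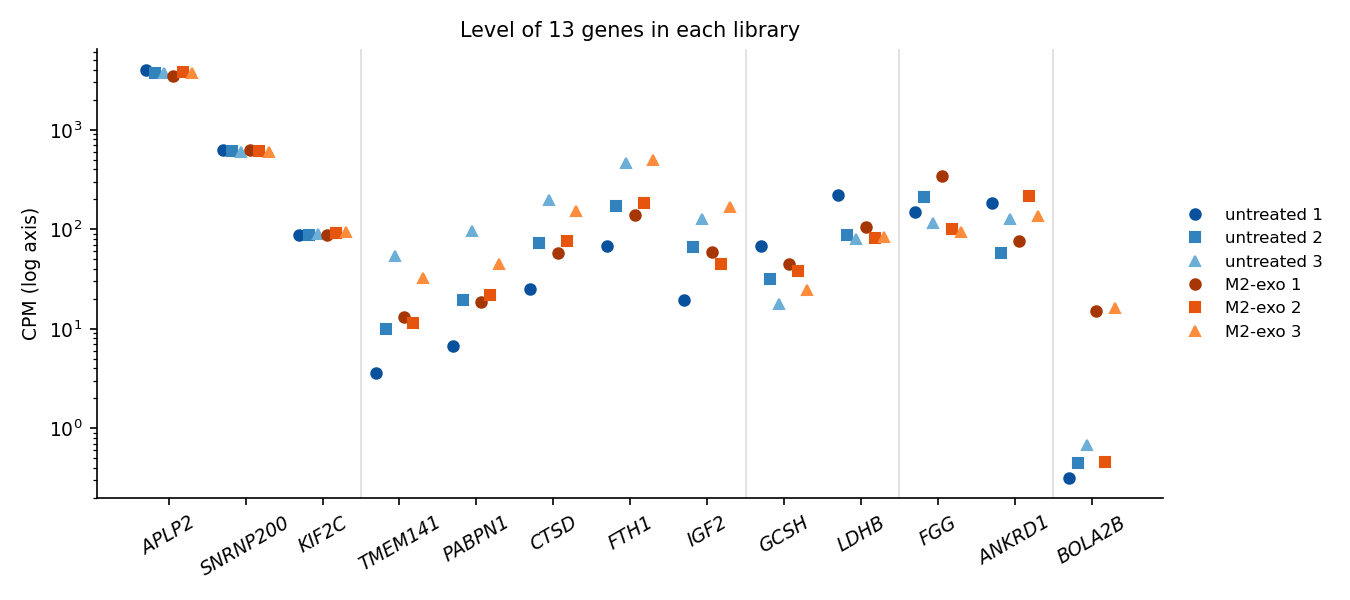
CPM on a log axis of 13 genes (x axis) in the 3 untreated (blue) and 3 M2-exo treated (orange) libraries, 1 point per library. APLP2, SNRNP200 and KIF2C have 6 points close together, TMEM141 to IGF2 have untreated 1 lowest, GCSH and LDHB have untreated 1 highest, and BOLA2B has 2 treated points above 15 CPM with the third among the untreated ones.

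The same pattern ran along the chromosomes. For each gene the deviation of a library was its log2 CPM minus the mean of the other 5 libraries. The median deviation of chromosome 19 genes was -0.45 in untreated 1, 0.04 in untreated 2 and 0.36 in untreated 3, and -0.11, 0.03 and 0.18 in treated 1, 2 and 3. Chromosomes 16, 17 and 22 deviated in the same direction in untreated 1 (-0.28, -0.17 and -0.30), and chromosomes 4, 13 and 18 in the other (0.20, 0.20 and 0.24). The order of the chromosomes followed how densely they carry annotated genes. Over 23 chromosomes, which share libraries and normalization, the median deviation correlated with genes per Mb at r = -0.88 in untreated 1, 0.70 in untreated 2, 0.87 in untreated 3, -0.79 in treated 1, 0.58 in treated 2 and 0.89 in treated 3, given as a description. Between groups the chromosomes hardly differed, with median log2 differences from -0.04 on chromosome 21 to 0.01 on chromosome 20. Those medians near 0 rest on both outlying untreated libraries: the chromosome 19 median was -0.14 without untreated 1 and 0.17 without untreated 3.

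**Figure D3:**
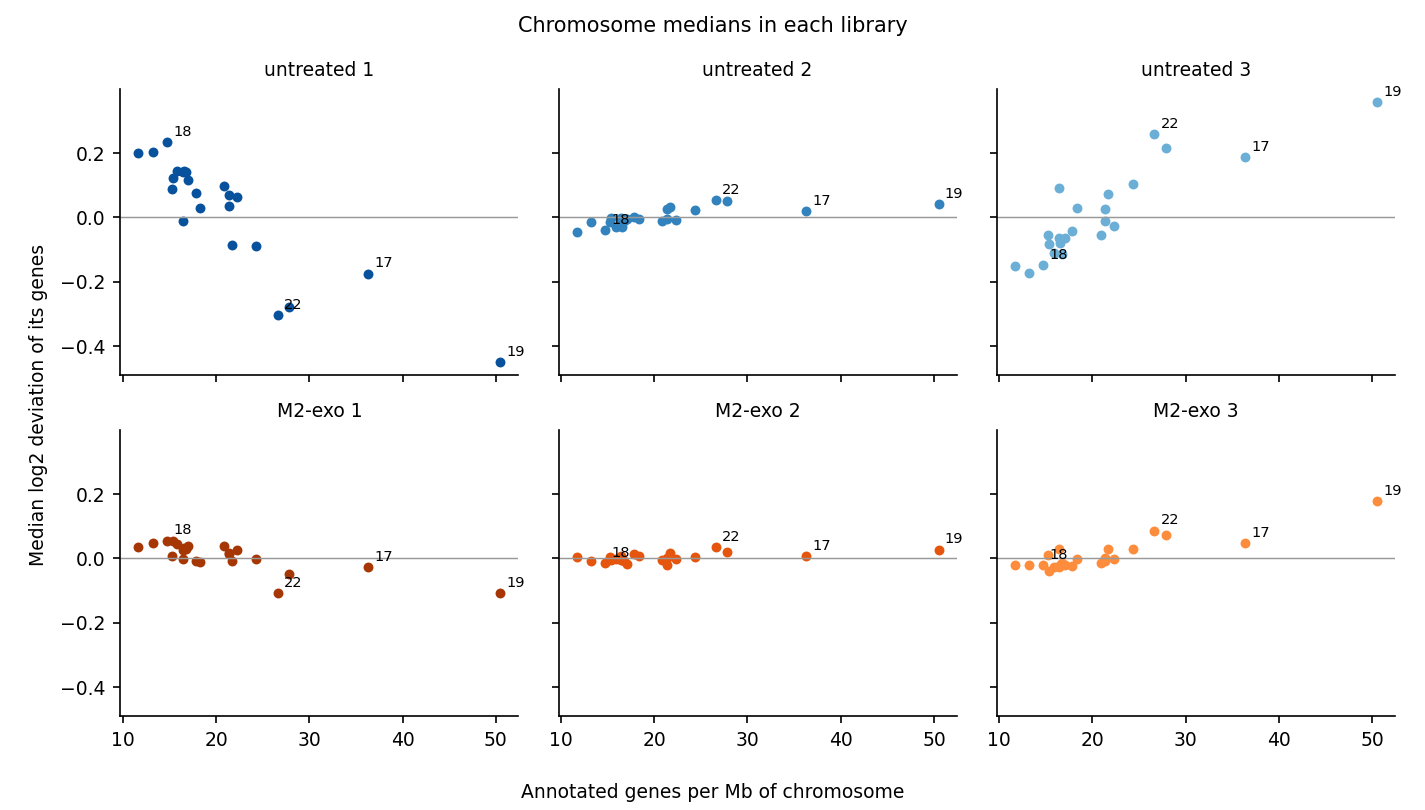
Median log2 deviation of the genes of each of 23 chromosomes from the mean of the other 5 libraries (y axis) against annotated genes per Mb (x axis), 1 panel per library, with chromosomes 17, 18, 19 and 22 labelled. Untreated 1 slopes down to -0.45 at chromosome 19, untreated 3 slopes up to 0.36, and the other 4 libraries lie closer to 0.

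Chromosomes also differed in how far a change could be bounded. The share bounded within 2-fold ran from 72.9% on chromosome 16, 73.7% on chromosome 21, 76.4% on chromosome 19 and 76.9% on chromosome 22 to 82.9% on the X chromosome, beside 80.4% over all genes. Within 1.5-fold, 21.2% of 983 chromosome 19 genes were bounded, beside 41.9% over all. At matched level, among protein-coding genes of 20 to 100 CPM, the 1.5-fold bound held for 34.0% of 291 genes on chromosome 19, 52.9% on 16, 57.7% on 22, 74.5% on 4 and 81.5% on 18, while the 2-fold bound held for 96.6% on chromosome 19. The median SD of chromosome 19 genes was 0.46 in untreated and 0.27 in treated cells.

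Chromosome 19 was not uniform. It carries large clusters of KRAB zinc finger genes, which encode DNA-binding repressors, and at 5 CPM or more the 115 zinc finger genes there had median deviations of 0.25 in untreated 1 and -0.22 in untreated 3. The 546 other protein-coding genes of the chromosome had -0.58 and 0.50, the opposite signs, and the 200 zinc finger genes of other chromosomes had 0.17 and -0.08. Zinc finger genes of chromosome 19 thus followed the zinc finger genes elsewhere in sign and not their neighbours. Their share bounded within 2-fold was 93.9%, that of their neighbours 93.0% and that of zinc finger genes elsewhere 98.0%.

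Local gene density ordered the libraries in the same way. From genes with under 15 neighbours starting within 500 kb to genes with 60 and over, the median deviation went from 0.24 to -0.42 in untreated 1 and from -0.19 to 0.32 in untreated 3, and the share bounded within 1.5-fold from 45.9% to 28.1%. Among genes of 2 to 4 kb and at least 5 CPM it went from 0.24 to -0.45 in untreated 1 and from -0.17 to 0.35 in untreated 3, so the order was present at matched length. By promoter G and C content it went from 0.19 under 45% to -0.11 at 75% and over in untreated 1, and from -0.14 to 0.14 in untreated 3. The part of read composition, RNA quality or culture in this pattern was not tested.

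**Figure D4:**
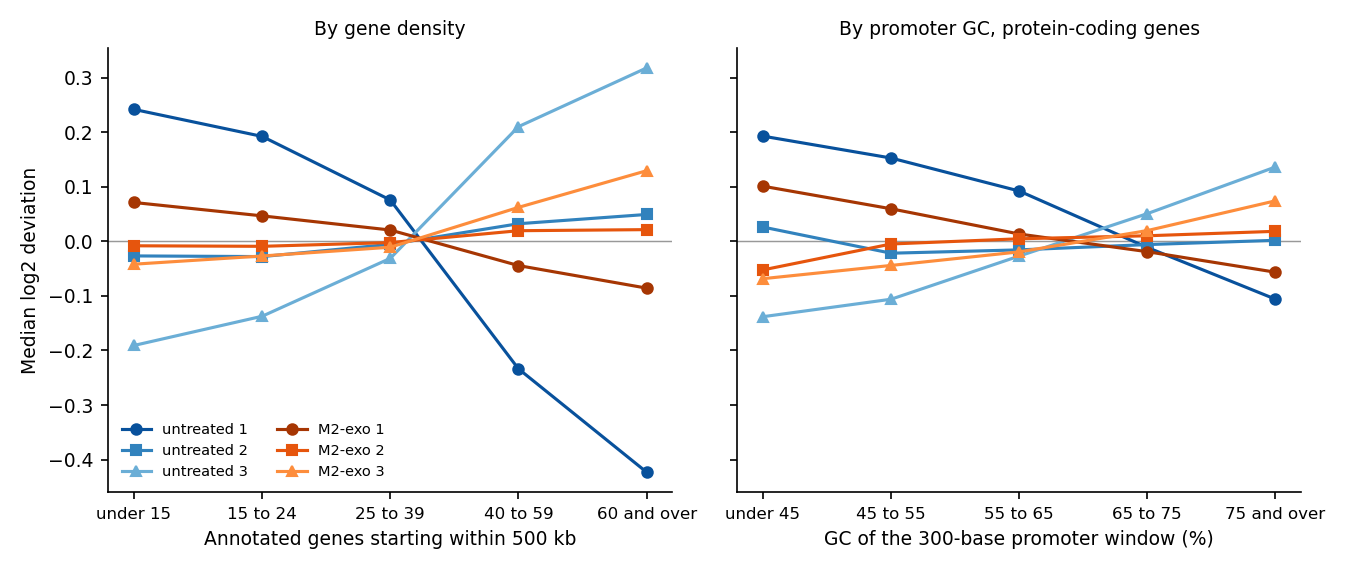
Median log2 deviation of each library (y axis) by number of annotated genes starting within 500 kb (left, all genes tested) and by the G and C percent of the 300-base promoter window (right, protein-coding genes). The 6 lines cross near 0, and untreated 1 (0.24 to -0.42 on the left) and untreated 3 (-0.19 to 0.32) span the widest range.

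A score for each library, the median deviation of chromosome 19 genes minus that of chromosome 4, 13 and 18 genes, was -0.60, 0.04 and 0.48 in the untreated and -0.16, 0.04 and 0.18 in the treated libraries. It was chosen after seeing the data and added to the edgeR model as a covariate. The common biological coefficient of variation went from 22.7% to 13.3%, and the median standard error of the log2 difference from 0.23 to 0.15. The model still called 0 genes, with a smallest adjusted p of 0.8877 and 462 genes at an unadjusted p under 0.05. It bounded 9898 genes within 1.5-fold and 12795 within 2-fold. For TMEM141 the log2 difference was then 0.32 with a standard error of 0.285, and for CTSD 0.19 with 0.155, in both opposite in sign to the value without the score and in both with an interval that kept 0.

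A second arrangement of the libraries appeared in a few secreted protein genes and did not follow the groups either. FGG, the fibrinogen gamma chain, had 149, 210 and 116 CPM in untreated and 342, 101 and 94.1 CPM in treated cells, highest in treated 1 and untreated 2 (log2 0.17, -0.86 to 1.21). FGA (109, 155 and 80.0 against 162, 77.9 and 71.7 CPM) and FGB (25.7, 49.1 and 27.2 against 74.3, 27.2 and 22.1 CPM), the other fibrinogen chains, were high in the same libraries. Of 7677 genes of at least 20 CPM, 371 had these libraries as their highest pair and 676 as their lowest. Counts for other pairs of libraries are not given here, so neither number shows that this arrangement was more common than another. A gap of more than 0.5 on the log2 scale to the other 4 libraries was seen in 4 of the 676 (ANKRD1, OLR1, SOCS2 and CCND2), genes named after their values were seen. ANKRD1, a YAP target of stretched and spreading cells, had 182, 58.1 and 127 CPM untreated and 77.1, 216 and 136 CPM treated (log2 0.22, -0.75 to 1.19).

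Gene families and lists had medians near 0. The 22 families and lists held 1383 tested genes, 5 memberships had an unadjusted p under 0.05, and no member passed after edgeR's adjustment. Their median log2 differences lay between -0.14 (histone genes) and 0.05 (tubulins and actins), beside -0.01 over all genes, with 9 above 0 and 13 below. In 5 of the 22 every tested member was bounded within 2-fold, and in 1 every member within 1.5-fold.

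The vesicle uptake list, endocytic genes through which cells can take vesicles in, was among the first 5. All 30 tested members were bounded within 2-fold (80.4% of all genes) and 20 within 1.5-fold (41.9% of all genes), with a median log2 difference of 0.01. The median level of the list was 137 CPM. Of all genes at 100 CPM and over, 98.97% were bounded within 2-fold and 84.5% within 1.5-fold, beside 66.7% of the list within 1.5-fold. CLTC, the clathrin heavy chain, had 644, 463 and 462 CPM in untreated and 507, 517 and 550 CPM in treated cells (log2 0.00, -0.36 to 0.36). The groups overlapped, and untreated 1 was the highest library. AP2B1, an adaptor subunit that links clathrin to cargo (0.05, -0.28 to 0.38), PICALM, a clathrin assembly protein (0.07, -0.30 to 0.44), and RAB7A, the GTPase of late endosomes (0.01, -0.26 to 0.29), were bounded within 1.5-fold. SNX9, a sorting nexin at forming vesicles, was the only member whose groups did not overlap, with 71.0, 73.3 and 68.6 CPM against 74.96, 84.5 and 73.5 CPM (log2 0.13, -0.18 to 0.44). The widest intervals of those named belonged to RAB5C, a GTPase of early endosomes, at 17.1, 54.4 and 84.6 against 48.1, 62.6 and 52.3 CPM (0.06, -0.94 to 1.06), and to EPN1, an epsin that bends membranes, at 95.5, 170 and 291 against 151, 181 and 230 CPM (0.01, -0.77 to 0.79). In both, untreated 1 was lowest and untreated 3 highest. RAB5C was counted as bounded within 2-fold although its interval reached past it. The unadjusted interval lay within 2-fold for 96.7% of the list.

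The housekeeping reference genes had the narrowest intervals of the 22 families and lists, with a median half-width of 0.33 on the log2 scale. All 17 housekeeping reference genes were bounded within 1.5-fold, GAPDH, a glycolytic enzyme, at a log2 difference of 0.19 (-0.08 to 0.46) and the prolyl isomerase PPIA at -0.15 (-0.50 to 0.21). Within 2-fold all 34 SR and hnRNP splicing factors were bounded, all 46 histone modifiers and all 14 tubulins and actins, as well as 42 of 43 proteasome genes, 33 of 34 tRNA synthetases, 61 of 65 translation factors and 72 of 76 mitochondrial ribosome genes. The median levels of these lists ran from 50.8 CPM (mitochondrial ribosome) to 431 CPM (tubulins and actins), with 241 CPM for the housekeeping genes. Of all genes at 20 to 100 CPM, 98.3% were bounded within 2-fold and 66.7% within 1.5-fold. At 100 CPM and over the shares were 98.97% and 84.5%, so the counts of these lists lie near those of their level. SRSF9, a splicing regulator, had 91.6, 92.2 and 178 CPM in untreated against 92.5, 87.7 and 109 CPM in treated cells (log2 -0.33, -0.90 to 0.25), where untreated 3 alone stood high. The histone demethylase gene KDM6B had 9.78, 13.8 and 15.7 CPM against 16.7, 16.1 and 18.2 CPM, groups that did not overlap, with 0.38 (-0.11 to 0.87), and the SET domain gene SETD9 -0.44 (-0.94 to 0.06).

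Solute carriers and RAB GTPases were bounded within 2-fold about as often as all protein-coding genes (87.5%). Of 250 solute carriers, which move ions and nutrients across membranes, 215 (86%) were bounded. The prostaglandin carrier gene SLCO2A1 had 1.14, 0.839 and 1.01 CPM untreated and 1.35, 1.78 and 2.01 CPM treated (log2 0.78, -0.01 to 1.57), and the betaine carrier gene SLC6A12 had -0.73 (-1.46 to 0.00). Of 51 RAB GTPases 45 (88.2%) were bounded, and RAB32, which acts in the making of lysosome-related organelles, had a log2 difference of -0.31 (-0.72 to 0.11). Of 32 lysosome genes 30 were bounded, among them CD63, a tetraspanin of late endosomes and exosomes, with 513, 492 and 620 CPM in untreated and 489, 489 and 383 CPM in treated cells (log2 -0.26, -0.60 to 0.09). The CD63 groups did not overlap, but the nearest libraries of the groups almost met. The median level of the lysosome list was 124 CPM, and of all genes at 100 CPM and over 98.97% were bounded within 2-fold.

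The signalling and matrix lists varied in the share bounded within 2-fold, on both sides of the 80.4% of all genes. Of 50 cytokine and TNF receptors 41 (82%) were bounded, and TGFBR2, a TGF-beta receptor, had 133, 131 and 111 CPM untreated and 144, 157 and 139 CPM treated (log2 0.23, -0.08 to 0.54). Its groups did not overlap. Of 15 interleukins and chemokines 9 (60%) were bounded, with the cytokine IL32 at 0.35 (-0.17 to 0.86) and the chemokine CCL20 at 23.1, 11.7 and 19.1 CPM against 9.62, 11.9 and 14.6 CPM (-0.58, -1.21 to 0.05). Of 29 collagens and laminins 24 (82.8%) were bounded, and the laminin chain gene LAMC3, near 1 CPM, had 0.93 (-0.04 to 1.89). Of 33 nuclear receptors 29 (87.9%) were bounded, with the immediate early receptor NR4A1 at 0.38 (-0.55 to 1.31) and the fatty acid sensor PPARD at -0.27 (-0.76 to 0.22). Of 21 cytochrome P450 and UGT genes, which modify drugs and steroids, 14 were bounded, and of 18 mucosal secreted proteins 12. The lists also differed in level. Interleukins and chemokines had a median of 4.78 CPM, and of all genes at 1 to 5 CPM 53.7% were bounded. Cytochrome P450 and UGT genes had 5.47 CPM, beside 92.5% of all genes at 5 to 20 CPM. The other lists had medians of 21.7 to 70.0 CPM, beside 98.3% of all genes at 20 to 100 CPM. These shares are not matched gene by gene.

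Of 1037 transcription factor genes of any family, 894 (86.2%) were bounded within 2-fold, near the 87.5% of all protein-coding genes. Among them were 59 of 84 homeobox factors and 40 of 47 bHLH factors, both of which control cell identity, and all 10 E2F factors of the cell cycle. Their median deviations in untreated 1 were -0.38, -0.36 and 0.25. Of 388 zinc finger genes 350 were bounded within 2-fold and 108 within 1.5-fold. ZNF394 had 21.9, 24.2 and 21.5 CPM in untreated and 13.8, 16.4 and 17.7 CPM in treated cells (log2 -0.49, -0.90 to -0.09), and ZNF30 had 6.92, 5.54 and 4.95 CPM against 7.99, 9.24 and 7.80 CPM (0.52, 0.02 to 1.03). In both the groups did not overlap and the adjusted edgeR p stayed above the threshold. Among the ubiquitin ligases of the TRIM and RNF families 97 of 106 were bounded, and RNF183 had 3.18, 3.24 and 3.94 CPM against 7.77, 4.13 and 4.74 CPM (0.68, 0.01 to 1.35). Of 23 histone genes 14 were bounded, and HIST1H2BH (0.58, -0.13 to 1.30) and HIST1H2BD (-0.40, -0.88 to 0.08) had estimates of opposite sign. The median level of the histone list was 2.09 CPM, and of all genes at 1 to 5 CPM 53.7% were bounded within 2-fold. Histone genes are similar in sequence and their replication-dependent transcripts lack poly(A) tails, so their counts depend on library preparation and on how shared reads were assigned, neither of which is recorded in the labels or processing notes.

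**Figure D5:**
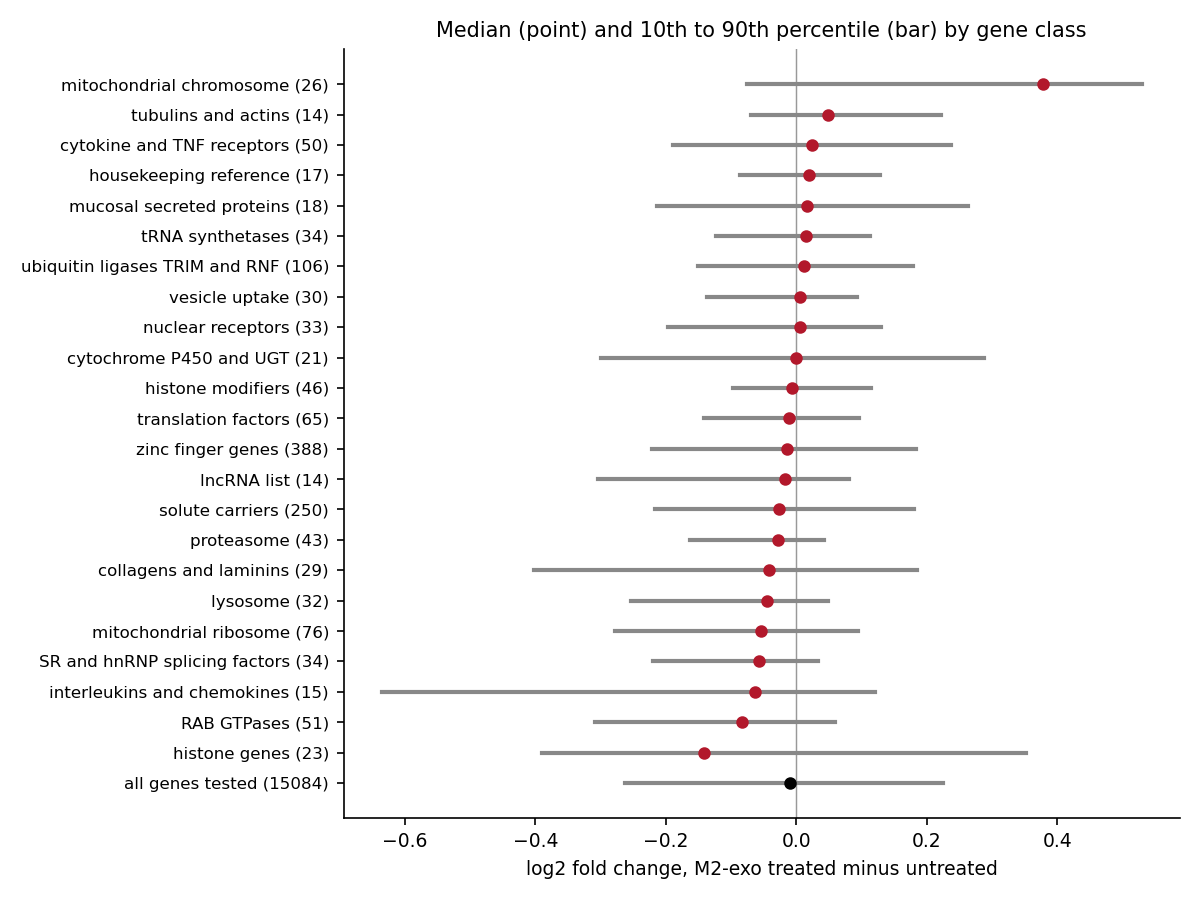
Median log2 difference, treated minus untreated (point), with the 10th to 90th percentile over the genes of each class (bar), for the 22 families and lists, the mitochondrial chromosome and all genes tested, with the number of genes in brackets. Medians of the families and lists lie between -0.14 and 0.05, and the 26 genes of the mitochondrial chromosome have 0.38.

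The mitochondrial chromosome, which encodes respiratory chain subunits and the RNAs to translate them, had the largest median of the biotypes, chromosomes, families and lists. Its 26 tested genes had a median log2 difference of 0.38, and 12 (46.2%) were bounded within 2-fold. The class took 4.16%, 7.48% and 7.01% of counts in untreated and 7.50%, 7.49% and 8.11% in treated cells (exact permutation test, two-sided, p = 0.1, the smallest possible; adjusted over 18 shares, 0.953). Untreated 1 was the lowest library in 13 of 13 protein-coding genes, 2 of 2 ribosomal RNAs and 9 of 11 transfer RNAs. MT-ND1, a subunit of complex I, had 1203, 3062 and 4180 CPM in untreated and 3025, 3433 and 5065 CPM in treated cells (log2 0.45, -0.41 to 1.31). Without untreated 1 the class median was 0.10 and 76.9% of its genes were bounded within 2-fold, and without untreated 3 the median was 0.64.

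The gene with the smallest unadjusted p on each chromosome, at 5 CPM or more, gave 24 genes, 9 higher and 15 lower in treated cells, and 21 had groups that did not overlap, which choosing by smallest p favours. The third complement component C3, on chromosome 19, had 89.8, 92.1 and 97.3 CPM in untreated and 125, 130 and 120 CPM in treated cells. The groups stood apart, and its log2 difference was 0.43 with a standard error of 0.128 and an interval of 0.14 to 0.72. With the library score in the model C3 had 0.42 with a standard error of 0.0887 and an adjusted edgeR p of 0.9997. The score was built from chromosome 19 genes of these same libraries, C3 among them, so the smaller error is no separate evidence. AKR1C1, an aldo-keto reductase, had 99.6, 79.5 and 89.3 CPM against 43.7, 51.9 and 71.5 CPM (log2 -0.68, standard error 0.199). Others were NFKBIZ, a nuclear regulator of NF-kB (0.56), the BMP target ID1 (0.41), the collagenase MMP1 (0.57), the Wnt effector LEF1 (0.38), the calcium-binding protein S100A4 (-0.56), the complex III assembly factor UQCC2 (-0.59), the complex I subunit NDUFA2 (-0.45) and the secretory granule gene ICA1 (-0.54). None passed edgeR's adjusted test, and each has the smallest p of its chromosome by choice.

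The smallest p of all belonged to a gene whose groups overlap. BOLA2B, one of the copies of an iron-sulfur cluster chaperone gene on chromosome 16, had 5, 8 and 12 counts in untreated and 268, 8 and 291 counts in treated cells. In CPM the values were 0.318, 0.448 and 0.675 against 15.1, 0.459 and 16.2, with treated 2 among the untreated values. The log2 difference was 4.43 with a standard error of 1.04. BOLA2, its near-identical copy, had 0, 2 and 0 counts against 0, 0 and 3, so the sum of both shows the same split of the treated libraries. U2AF1 and its copy U2AF1L5, splicing factor genes on chromosome 21, had 306, 632 and 119 counts and 25, 38 and 160 counts in untreated, and 263, 510 and 116 and 29, 288 and 316 in treated cells. Their sum was 331, 670 and 279 counts untreated and 292, 798 and 432 treated. The ratio of its highest to its lowest library was smaller than that of U2AF1L5 alone. SMIM11A had 96, 14 and 15 counts against 9, 8 and 11, high in untreated 1 only, and its copy SMIM11B 2, 8 and 2 against 0, 7 and 7. These pairs were chosen after their values were seen. The assignment of reads shared between copies is not recorded in the labels or processing notes, so counts of each copy are uncertain.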

How the data were processed

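RNA sequencing gene counts of 3 untreated and 3 M2-exo treated Caco-2 libraries were used as deposited by the authors: whole-number counts per gene, with gene lengths, positions and biotypes. The submitters' processing notes name CASAVA, HISAT2, featureCounts and the GRCh38 build. For tool versions, the strand setting and the treatment of multiply mapped reads: not given in the sources used here. In the table, 3 further sample columns were not used. Genes were filtered by edgeR's filterByExpr on the groups, scaled by TMM and tested with edgeR 4.0.16 (R 4.3.3) quasi-likelihood tests with Benjamini-Hochberg adjustment over all genes kept. CPM are counts per 1000000 of TMM-scaled library size, and spreads are SDs of log2 CPM with a prior count of 2. Bounds are shifted tests against 1.5-, 2- and 4-fold. Alternatives used DESeq2 1.42.0, limma 3.58.1, other scalings and filters, and each library left out. The tests were checked on simulated data.

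The members and lists were chosen with earlier results of these data known. Named genes are the 3 protein-coding genes with the narrowest interval per level class, the 8 with the widest within-group spread, the lncRNA-type genes without overlap by smallest p, the smallest-p higher and lower member of each list, the 3 highest and lowest genes of each library, the smallest-p gene of each chromosome, genes with a 4-fold range, and the lncRNA and vesicle uptake lists. The text names some of these.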

Additional observations from a re-analysis of the deposited data

How the results depend on the processing

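The count of genes with an adjusted p under 0.05 was 0 under every scaling, tool and filter tried except with no filter on low counts. That setting called 6 genes, 3 higher and 3 lower: C6orf48, EGR1, RN7SL2, U2AF1L5, BOLA2B and SMIM11A. Leaving out 1 library gave 0 to 1 calls, the 1 being BOLA2B without treated replicate 2 (adjusted p 0.006249 by edgeR). limma-voom with quality weights had 0 calls and 962 genes at an unadjusted p under 0.05. Same-numbered libraries did not deviate together in every pair (r = 0.33, -0.09 and 0.57 across 13690 genes), and 4 of 6 libraries correlated best with their own number. Their medians over 23 chromosomes correlated at r = 0.94, 0.64 and 0.92, while untreated 2 correlated more with treated 3 (0.74). The labels number the libraries and do not state a pairing. With the replicate block the edgeR test called 0 genes, with a smallest adjusted p of 0.4151 and 211 genes at an unadjusted p under 0.05, and 12516 genes were bounded within 2-fold. The block took the common biological coefficient of variation from 22.7% to 16.95%. It raised the number bounded within 1.5-fold from 6325 to 8913. The number of genes tested differed between settings. Bounded within 2-fold were 40.88% of 29414 with no filter, 69.29% of 16867 by DESeq2 and 88.63% of 13685 at a mean CPM of at least 1. By the unadjusted 95% interval 11406 genes lay within 2-fold. With the adjusted rule, the number bounded within 2-fold was between 11687 (DESeq2) and 12960 (quality weights) over all settings with 6 libraries. Without untreated 1 and untreated 3, an alternative added with the library score after seeing the data, it was 10781 and 0 genes were called. The share of genes more variable in untreated cells was 62.15% with no filter and 72.7% at a mean CPM of at least 1. Leaving out 1 library gave 50.17% to 77.63%, each from SDs over unequal numbers of libraries. Of 94 genes followed by name, 93 kept their sign with scaling by total counts and 74 without untreated 3. The sums of near-identical gene pairs at a protein identity threshold were not run, since no protein sequences were used here. Where a cause is not given, the cause was not tested. Under 1 CPM, 5.81% of genes were bounded within 2-fold. How far depth limits this was not tested.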
